A study of Mus musculus with 3 samples.

Results

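Arterial endothelial cells line the vessels that carry blood towards the lung capillaries, and they were a small minority of the sorted mouse lung endothelium. A cell was counted as arterial when it held at least 3 unique molecular identifiers (UMIs, counted transcripts) of Bmx, Gja5, Stk32a and Dkk2 together, and more of these than of the vein genes Slc6a2, Car8, Prss23 and Amigo2. It also had to hold fewer than 4 UMIs of the aerocyte genes Ednrb, Fibin, Tbx2, Chst1 and Apln, and fewer than 3 of the lymphatic genes Prox1, Mmrn1 and Reln. The members were thus chosen by measured UMIs of 4 arterial genes, and the levels of those genes, and of any gene set against other cells of the same libraries, are descriptions without a test. The rule found 920 arterial cells among 31092 endothelial cells (ECs) of 31947 cells within the gene and mitochondrial limits.

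All mice were C57BL/6, wild type (WT), adult and male. Control mice received PBS by the tail vein and were taken at 6 h, and the others received 200000 B16-F10 cells in 100 µl PBS by the same route and were taken at 6 h or 30 h. B16-F10 is a mouse melanoma line that seeds the lung from the circulation. Pecam1-positive, Ptprc-negative lung cells were sorted after enzyme digestion at body temperature, and each condition gave 1 pooled 10x Genomics library (2 mice per treatment by the labels, a number that the study's methods give differently). By the labels, sorted melanoma cells were added to the 6 h B16-F10 library. The study describes isolating melanoma cells at 6 h and 30 h, and whether any entered the 30 h library is not settled. The arterial cells numbered 305 in the control, 273 at 6 h and 342 at 30 h.

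The 3 libraries analysed here held no 30 h PBS library and no replicate of a condition, so treatment, time and library cannot be told apart at 30 h, nor treatment and library at 6 h. No comparison between libraries carries a test or a standard error. Levels are UMI counts per 1000000 UMIs (CPM) summed over the arterial cells of a library, and the 95% intervals given (exact Poisson for a level, exact conditional binomial for a ratio, Clopper-Pearson for a share) cover counting error only. Ratios are log2 ratios of (CPM + 1), while intervals of ratios are those of the CPM without the added 1. A difference between the ratio of the arterial cells and that of other ECs is also computed without the added 1, with a normal approximation for its interval, so for low genes it can depart from the difference of the 2 printed ratios. Levels of different genes are not compared, because capture differs between transcripts.

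Arterial identity is set up by VEGF and Notch signalling. Dll4 and Jag1 on neighbouring cells activate Notch receptors, whose nuclear partner Rbpj then drives Hey1 and Hes1, while Sox17 and Mecom keep the arterial programme in place. Arterial ECs are coupled by the connexins Gja5 (connexin 40) and Gja4 (connexin 37), carry the repulsive ligand Efnb2 that separates them from veins, and in the larger vessels sit on an elastic layer of elastin, fibrillin and fibulins.

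The libraries held 140601123 UMIs in the control, 132566934 at 6 h and 124085451 at 30 h. The summed depth of the arterial cells was 2761286, 2556611 and 3320078 UMIs in the same order, and the median arterial cell held 8786, 9225 and 9306 UMIs against 7770, 8006 and 8655 in all other ECs. No barcode was shared between the arterial cells of different libraries. Depth was therefore similar between libraries, and the arterial cells were somewhat deeper than their neighbours in each.

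The rule genes were measured in unequal parts of the set. Bmx, a non-receptor tyrosine kinase of arterial endothelium, had UMIs in 233 control, 182 6 h and 272 30 h cells. Stk32a, a serine/threonine kinase, had UMIs in 215, 198 and 200 cells. Gja5 had UMIs in 85, 96 and 230 cells. Dkk2, a secreted modulator of Wnt receptors, had UMIs in only 9, 6 and 11 cells, and 41 of its 62 UMIs at 6 h came from 1 cell. Bmx and Stk32a were thus detected in more cells than Gja5 in the control and at 6 h, and Gja5 in more cells than Stk32a at 30 h.

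The marker content of the cells was graded and mostly low. Exactly 3 rule UMIs were held by 105 control cells (34.4%), 79 6 h cells (28.9%) and 86 30 h cells (25.1%). At least 6 were held by 104 (34.1%), 101 (37.0%) and 161 cells (47.1%). Of the rule UMIs, 182, 244 and 840 were of Gja5, and 99 of the 342 30 h cells (28.9%) entered the set only with its UMIs, against 20 (6.56%) in the control and 36 (13.2%) at 6 h. A bin of rule UMIs therefore did not hold like cells in the 3 libraries, and every ratio between libraries within a bin is given below as a description. Just outside the limit, 174, 172 and 203 endothelial cells held 2 rule UMIs and were left out.

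**Figure D1:**
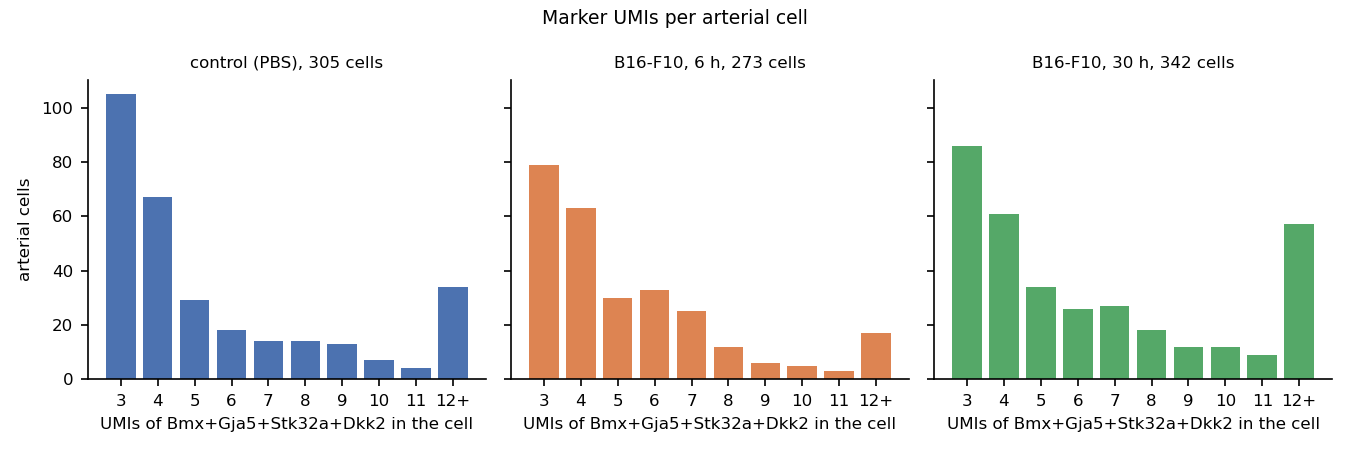
Number of arterial cells (vertical axis) by the UMIs of Bmx, Gja5, Stk32a and Dkk2 together in the cell (horizontal axis, 12 and more pooled) in the control, 6 h and 30 h libraries. The bar at 3 UMIs is the tallest in each library, with 105, 79 and 86 cells, and the bar at 12 or more holds 34, 17 and 57 cells.

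Genes that the rule did not use followed this gradation. The summed level of 20 arterial genes outside the rule, in cells with exactly 3, with 4 to 5 and with 6 or more rule UMIs, was 6600, 8450 and 12300 CPM in the control, 6740, 7800 and 11800 CPM at 6 h and 10200, 11700 and 18300 CPM at 30 h. The cells left out with 2 rule UMIs stood at 5470, 5420 and 8390 CPM in the 3 libraries, below every bin of members of their own library. The summed level of 12 capillary genes ran the other way, at 10000, 9270 and 7120 CPM over the same 3 bins in the control, 8960, 8790 and 6870 CPM at 6 h and 8460, 7860 and 6180 CPM at 30 h.

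Several single genes showed the same order, but not all arterial genes did. Mecom, a zinc finger transcription factor of arterial identity, was at 166, 327 and 797 CPM over the 3 bins in the control, 192, 321 and 663 CPM at 6 h and 204, 331 and 770 CPM at 30 h. Vwf, the platelet-binding glycoprotein of larger vessels, was at 295, 571 and 1269 CPM in the control. Sema3c, a guidance cue of general capillary ECs, was at 2094, 1395 and 666 CPM in the control, and Glp1r, a capillary receptor for an incretin hormone, at 229, 160 and 69.4 CPM. Mecom and Vwf were thus highest and Sema3c and Glp1r lowest in the cells with 6 or more rule UMIs, in each library. Sox17 ran the other way in the control, at 364, 280 and 224 CPM, and at 30 h, at 364, 321 and 265 CPM. At 6 h it was at 243, 275 and 261 CPM. Hey1, at 352, 416 and 363 CPM, and Efnb2, at 1022, 1059 and 1110 CPM, differed little over the bins in the control.

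**Figure D2:**
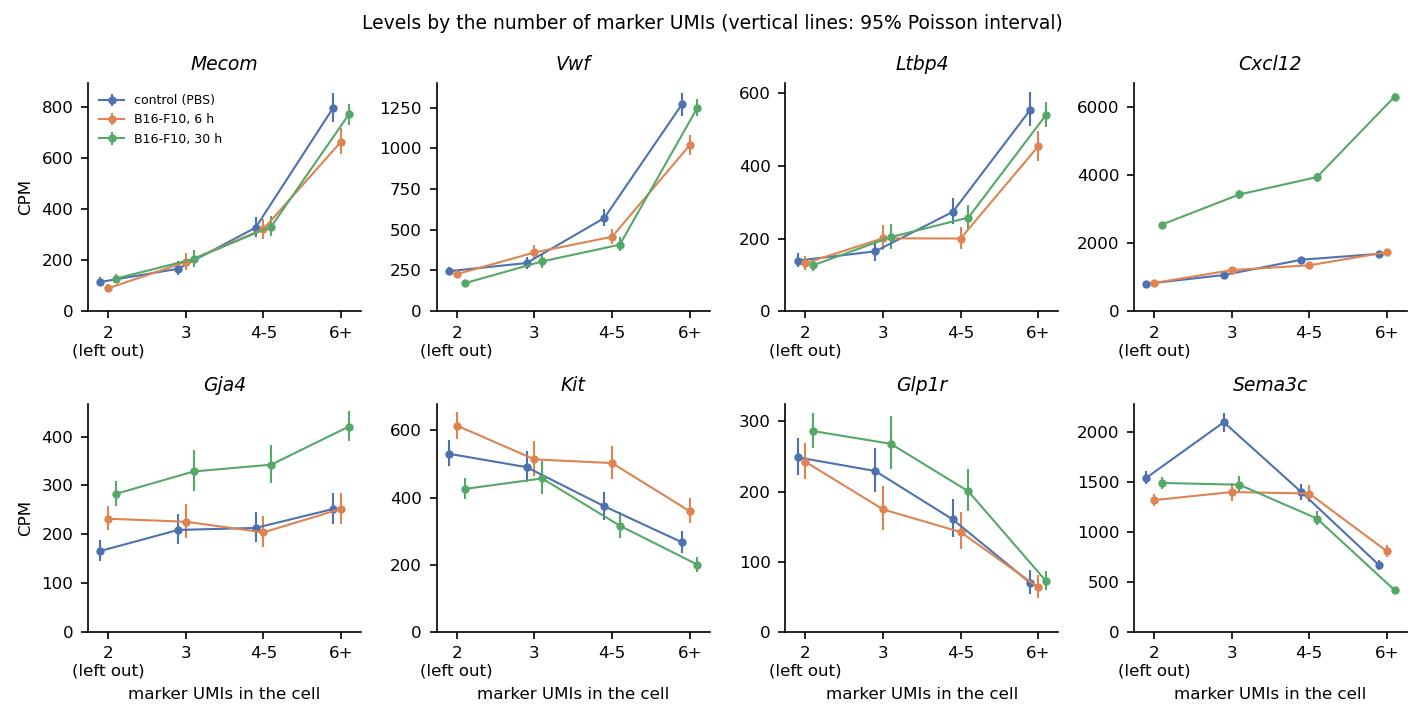
Level in CPM (vertical axes) of 8 genes outside the rule by the number of rule UMIs in the cell (horizontal axes: 2, left out by the rule, then 3, 4 to 5 and 6 or more), with 95% Poisson intervals as vertical lines, for the 3 libraries. Mecom, Vwf and Ltbp4 are highest and Glp1r and Sema3c lowest in the cells with 6 or more rule UMIs, and the 30 h library lies above the others for Cxcl12 in every bin.

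The label arterial was read on genes outside the rule, from lists made with earlier results of these data known. Some of the arterial genes are also artery markers that the study chose on data including these libraries. Their count is thus a description and no independent check. All 20 of the 20 arterial genes outside the rule were higher in the arterial cells than in all other ECs in all 3 libraries, against 2165 of the 6907 genes that averaged 20 CPM or more over the 3 libraries. The venous factor Nr2f2 was at 16.3, 19.95 and 14.8 CPM in the arterial cells and at 299.6, 333.3 and 360.8 CPM in the vein set. Ccl21a, the chemokine of lymphatic vessels, was at 6.88, 2.35 and 3.92 CPM against 20100, 15800 and 25560 CPM in the lymphatic set. Car4, the carbonic anhydrase of aerocytes, was at 75.7, 68.1 and 58.7 CPM against 1683, 1497 and 2351 CPM in the aerocyte set. These 3 genes were low, but other genes of the vein and lymphatic lists were not. The 10 vein genes outside the rule summed to 658, 756 and 621 CPM, between the 441, 525 and 410 CPM of the ECs of no named set and the 2530, 2780 and 2870 CPM of the vein set. The 7 lymphatic genes summed to 1620, 1310 and 1020 CPM against 1230, 1320 and 606 CPM in the ECs of no named set, and Lyve1, a hyaluronan receptor that other lung ECs expressed too, gave 1576, 1273 and 974 CPM of that. Capillary transcripts were not low either. The 12 capillary genes summed to 8740, 8080 and 7120 CPM against 10200, 8950 and 9380 CPM in the ECs of no named set. Of these 12, 4 were higher in the arterial cells than in all other ECs in all 3 libraries. Gpihbp1, which carries lipoprotein lipase to the capillary lumen, was at 1127, 957.9 and 941.8 CPM in the arterial cells and at 1467, 1197 and 1175 CPM in the ECs of no named set. Kit, a stem cell factor receptor of general capillary ECs, was at 373.7, 449.0 and 287.0 CPM against 545.5, 603.7 and 534.7 CPM.

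Fbln2, a fibulin of large-artery matrix that the rule did not use, split the set further. It was detected in 55 of 305 control cells (18.0%, 13.9 to 22.8), 38 of 273 6 h cells (13.9%, 10.0 to 18.6) and 92 of 342 30 h cells (26.9%, 22.3 to 31.9). Cells with at least 4000 UMIs were also thinned to that depth, which left out 18, 21 and 14 shallower arterial cells. The shares were then 11.5%, 9.13% and 20.4% in the arterial cells and 2.85%, 2.92% and 5.11% in the vein set. In the aerocyte set, which stands for background, they were 0.857%, 0.42% and 1.54%. Depth differed little between the 2 kinds of arterial cell, with a median of 9507, 9254 and 9593 UMIs where Fbln2 was detected and 8698, 9222 and 9158 where it was not.

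Cells with Fbln2 carried the elastic fibre genes. To narrow the range of rule markers, only cells with 6 or more rule UMIs were divided, giving 30, 24 and 64 cells with Fbln2 and 74, 77 and 97 without. The bin has no upper limit, with up to 32, 46 and 39 rule UMIs a cell. The rule UMIs of the cells with and without Fbln2 were not compared. Whether this division continues the gradation by rule UMIs was not tested. Elastic fibre genes together, Fbln2 and Mgp included, stood at 6530, 8330 and 5500 CPM in the former and at 1540, 1320 and 1380 CPM in the latter. Eln, which encodes elastin, was at 936.7, 833.6 and 713.0 CPM against 184.0, 279.4 and 217.7 CPM. Mgp, the matrix Gla protein that inhibits calcification of arterial walls, gave 3031, 4687 and 2471 CPM of the list's sums against 430.9, 249.1 and 201.3 CPM. Both were higher with Fbln2 in all 3 libraries. Vein genes outside the rule also moved with this division, at 2080, 1820 and 1250 CPM with Fbln2 against 536, 774 and 501 CPM without. Most of that came from Cytl1, a small secreted protein, at 1407, 1058 and 760 CPM against 29.9, 97.5 and 46.2 CPM, which in the vein set stood at 184, 172 and 254 CPM. Chn2, a Rac GTPase regulator, and Vegfc were higher with Fbln2 too, at 160, 145 and 53.1 CPM against 10.5, 19.8 and 7.71 CPM and at 82.9, 102 and 35.4 CPM against 10.5, 6.59 and 6.74 CPM. Nr2f2 was at 21.5, 11.8 and 4.43 CPM with Fbln2, against 300, 333 and 361 CPM in the vein set.

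Cdh13, Efna5, Sfrp1, Htra1 and Lox, picked after their values were seen, divided the same way. Cdh13, the GPI-anchored T-cadherin, was at 810.8, 692.1 and 308.5 CPM in cells with Fbln2 against 17.9, 33.0 and 23.1 CPM without. Efna5, an Eph receptor ligand, was at 454.5, 475.8 and 134.3 CPM against 22.4, 23.7 and 23.1 CPM. Sfrp1, a secreted Wnt antagonist, was at 267.2, 173.0 and 104.8 CPM against 1.496, 3.95 and 0.963 CPM, and Htra1, a secreted serine protease, at 150.5, 157.3 and 94.5 CPM against 4.49, 9.22 and 6.74 CPM. Lox, the enzyme that cross-links elastin, was at 79.8, 70.8 and 28.0 CPM against 4.49, 2.64 and 0 CPM.

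The 20 arterial genes outside the rule, Fbln2 and Mgp included, summed to 17400, 20500 and 21200 CPM with Fbln2 and 9840, 8910 and 16300 CPM without, but their members differed. Cxcl12, the chemokine that signals through Cxcr4, was at 1683, 1777 and 5832 CPM in cells with Fbln2 and 1682, 1714 and 6597 CPM in cells without, all with 6 or more rule UMIs. Gja4 was at 304.0, 298.9 and 456.1 CPM against 225.9, 235.9 and 396.9 CPM. Kit was lower with Fbln2, at 172.0, 137.6 and 79.7 CPM against 312.7, 433.6 and 278.4 CPM, as was Gpihbp1, at 488.3, 546.6 and 516.6 CPM against 1157, 885.6 and 1053 CPM. The 12 capillary genes summed to 4260, 4400 and 4540 CPM in cells with Fbln2 and to 8510, 7690 and 7240 CPM in cells without, so they were lower with Fbln2 but still measured. These genes were looked at after their values were seen.

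Transcripts of the vessel wall were low in the set. The 7 smooth muscle markers together stood at 59.4, 33.6 and 63.0 CPM (35.5, 39.5 and 37.7 CPM in the ECs of no named set). The 7 fibroblast markers stood at 23.2, 18.8 and 27.4 CPM (20.8, 21.1 and 30.2 CPM there), with Lum at 0 in all 3 libraries. With 6 or more rule UMIs, smooth muscle markers were at 43.0, 31.5 and 109 CPM where Fbln2 was detected. Where it was not, they were at 44.9, 26.4 and 63.6 CPM. Fibroblast markers were at 36.9, 74.7 and 22.1 CPM with Fbln2 and 34.4, 18.4 and 26.0 CPM without. At least 3 UMIs of smooth muscle, pericyte and fibroblast markers were held by 8.52%, 8.42% and 13.7% of the arterial cells and by 8.41%, 8.38% and 12.0% of all other ECs. Their part in the levels of matrix genes was not tested.

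Besides the markers of the rule, 113 of the 6907 genes were at least 2-fold higher and 35 at least 2-fold lower in the arterial cells than in all other ECs in all 3 libraries. Esr2, the estrogen receptor beta, had the largest smallest ratio, with log2 ratios of 5.10 in the control, 4.71 at 6 h and 5.32 at 30 h, and UMIs in 30.8%, 23.8% and 37.7% of the cells. Thsd7a, a thrombospondin-repeat protein, followed with 4.37, 4.42 and 4.46. Atp13a3, a polyamine transporter, had 4.19, 3.76 and 4.66. These transcripts were spread over many arterial cells.

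The same ranking held broad and narrow genes. Mecom had ratios of 3.66, 3.74 and 4.05 and UMIs in 65.6%, 62.6% and 69.3% of the cells, and Adgrg6, an adhesion G protein-coupled receptor, had 3.15, 3.41 and 3.65 and UMIs in 57.7%, 59.7% and 65.8%. Cdh13 had ratios of 3.64, 3.74 and 3.21 but UMIs in only 10.8%, 12.1% and 11.7% of the cells. Sfrp1 had 4.35, 3.87 and 4.16 with UMIs in 4.26%, 2.20% and 2.05%. The highest 20 also held Olfm2, Pdlim3, Efna5, Lama3, Htra1, Eps8l2, Flrt2, Fads3, Gcnt1, Slc45a4, Afap1l2, Pde1c (a cyclic nucleotide phosphodiesterase) and 1010001N08Rik. At the other end, Car4 had ratios of −2.77, −2.61 and −3.71, and Vegfc, a growth factor for lymphatic vessels, −2.08, −2.35 and −2.21. The rule kept cells rich in aerocyte genes out, and all other ECs include the aerocyte set, so a low Car4 is partly set by that choice. The 8 aerocyte genes outside the rule summed to 540, 457 and 461 CPM, against 463, 404 and 466 CPM in the vein set. The ECs of no named set held 812, 722 and 884 CPM, and the aerocyte set 5460, 5350 and 7250 CPM. The low level was thus not particular to arterial cells. The lowest 10 also held Gm30382, Pmp22, Prx, AW112010, Sox11, Ptgs1, Tspan8 and Hbb-bt.

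The arterial share of ECs was 2.72% (2.42 to 3.03) in the control, 2.58% (2.29 to 2.90) at 6 h and 3.69% (3.31 to 4.09) at 30 h. Thinned to 4000 UMIs a cell, with shallower cells left out, it was 1.33% (1.11 to 1.58), 1.16% (0.948 to 1.40) and 2.03% (1.74 to 2.37). The share was higher at 30 h either way. Gja5, however, was itself at a higher level at 30 h, and cells that entered the set only through its UMIs numbered 20 (6.56%), 36 (13.2%) and 99 (28.9%). With cells chosen by Bmx, Stk32a and Dkk2 alone the shares were 2.54% (2.25 to 2.85), 2.24% (1.97 to 2.54) and 2.62% (2.30 to 2.96), whose intervals overlap. A share of sorted cells also depends on digestion and sorting, which were not measured here.

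Gja5 (chr3:96904693-97077416, plus strand, GRCm38) had 182, 244 and 840 UMIs in the arterial cells, or 65.9, 95.4 and 253 CPM. Because these UMIs helped to choose the cells, its level was also read in the cells chosen by the other 3 rule genes, where it was 54.5 (46.0 to 64.3), 70.4 (59.8 to 82.4) and 209 CPM (191 to 229). The log2 ratio to the control was then 0.36 (0.03 to 0.71) at 6 h and 1.92 (1.67 to 2.22) at 30 h. In the vein set Gja5 was at 1.97, 1.78 and 2.23 CPM, and in empty droplets, which show free RNA, at 3.94, 5.06 and 22.2 CPM. The rule moved cells rich in Gja5 into the arterial set, so the low vein level is partly set by the choice of cells. After thinning, the share of aerocytes with Gja5 UMIs was 0.4% in the control, 0.49% at 6 h and 1.43% (0.927 to 2.1) at 30 h. That the 30 h difference is limited to arterial cells is therefore not read from these values.

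Bmx, each time in cells chosen by the remaining 3 genes, was at 215, 175 and 237 CPM, Stk32a at 193, 149 and 190 CPM, and Dkk2 at 11.3, 5.13 and 13.3 CPM. These cells were chosen in part by Gja5, which was itself higher at 30 h, so the levels are a description and are not compared with that of Gja5.

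Cxcl12, Gja4 and Nrarp were also higher in the arterial cells at 30 h than in the control. Cxcl12 (chr6:117168535-117181367, plus strand) had 3929, 3726 and 16741 UMIs in the arterial cells, or 1423, 1457 and 5042 CPM, and UMIs in 92.1% of the control cells. Its log2 ratio to the control was 0.03 at 6 h and 1.82 (1.78 to 1.88) at 30 h, against 1.73 at 30 h in all other ECs, where its level was 238, 258 and 794 CPM. The 30 h level of Cxcl12 was thus higher throughout the endothelium, and empty droplets held 163, 172 and 580 CPM. Within the bins of 3, 4 to 5 and 6 or more rule UMIs the arterial log2 ratio at 30 h was 1.69, 1.38 and 1.90.

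Gja4 (chr4:127311421-127314039, minus strand) was at 225, 229 and 380 CPM from 622, 585 and 1260 UMIs. The log2 ratio was 0.02 at 6 h and 0.75 (0.61 to 0.89) at 30 h, against 0.38 and 0.39 in all other ECs. At 30 h the arterial ratio exceeded that of the other ECs by 0.36 (0.21 to 0.50). Both arterial connexins were therefore higher in the 30 h library, Gja5 by the larger ratio.

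Nrarp (chr2:25180758-25183339, plus strand), a Notch target that limits Notch signalling, was at 21.7 (16.6 to 28.0), 23.5 (17.9 to 30.2) and 103 CPM (92.1 to 114) from 60, 60 and 341 UMIs, in 39, 45 and 166 cells. Its log2 ratio at 30 h was 2.19 (1.84 to 2.66) against 1.19 in all other ECs, a difference of 1.01 (0.60 to 1.41). In cells chosen without Gja5 the ratio was 2.19 (1.81 to 2.69). The ECs of no named set held 20.6, 28.4 and 56.9 CPM of Nrarp and empty droplets 26.8, 22.95 and 48.2 CPM, so in the control and at 6 h the arterial level was close to that of free RNA.

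**Figure D3:**
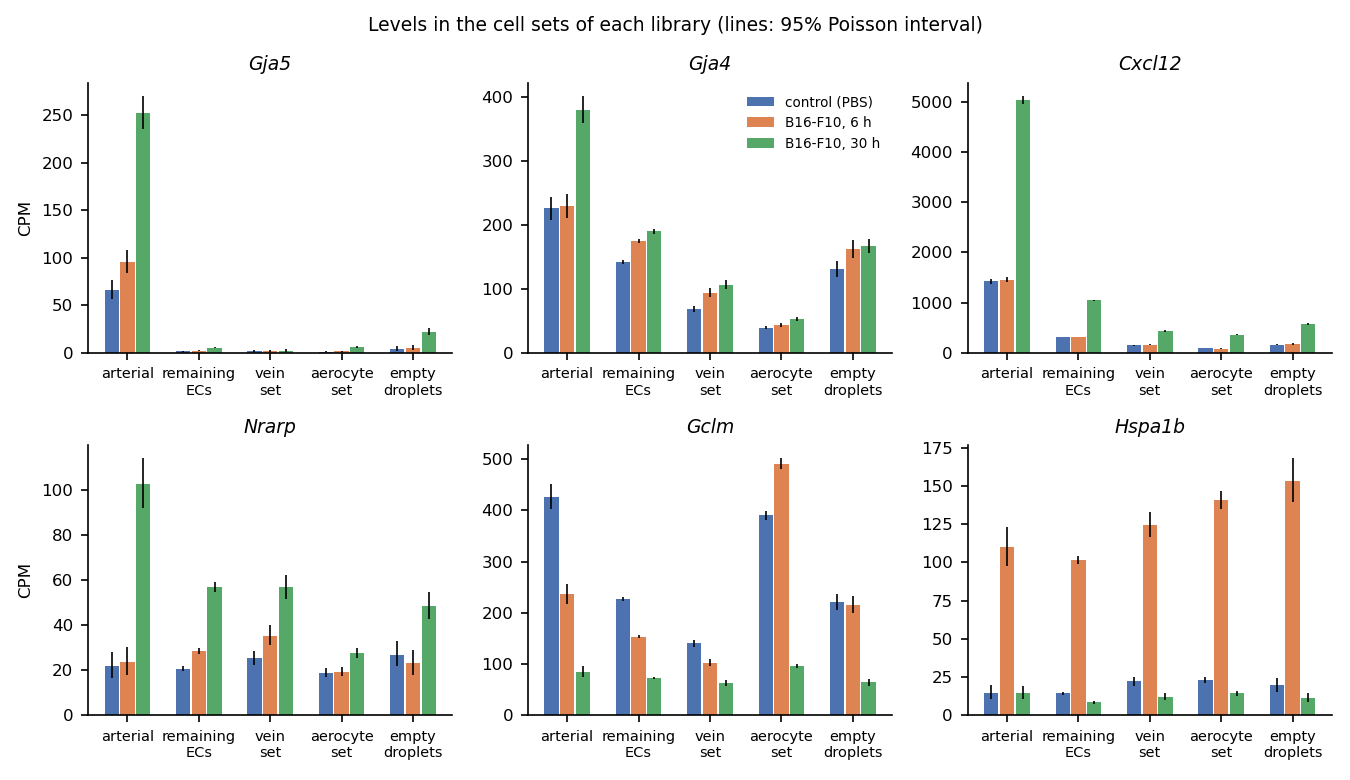
Level in CPM (bars, vertical axes from 0, with 95% Poisson intervals) of 6 genes in the arterial cells, the ECs of no named set, the vein set, the aerocyte set and empty droplets of the 3 libraries. In arterial cells at 30 h Gja5 stands at 253, Gja4 at 380, Cxcl12 at 5042 and Nrarp at 103 CPM, and Hspa1b is high at 6 h in every set shown.

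Of the 6907 genes, 28 (0.405%) were at least 2-fold higher at 6 h, and 17 (0.246%) were at least 2-fold lower. In cells with at least 5 rule UMIs the counts were 71 and 52, of which 22 and 14 were shared with these, and with no upper limit on the genes per cell 43 were lower, 13 of them shared. The median log2 ratio over all genes was 0.00164. In 6 genes (0.0869%) the arterial ratio was larger than that of the other ECs, and in 7 (0.101%) smaller, by at least 1 on the log2 scale with a counting interval that left out 0.

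Several heat shock genes were among those with the larger ratios at 6 h. Hspa1b, an inducible HSP70, was at 14.5, 110 and 14.2 CPM with UMIs in 34 control and 107 6 h cells, a log2 ratio of 2.84 (2.44 to 3.44) against 2.61 in all other ECs. Hspa1a, its near-identical neighbour with which reads can be shared, was at 25.3 and 95.05 CPM (1.87, 1.52 to 2.31), and Hsph1, an HSP110 co-chaperone, at 14.5 and 58.3 CPM (1.94, 1.496 to 2.55). Hsp90aa1 was at 168 and 422 CPM and Hspa8, the constitutive HSC70, at 574 and 1418 CPM. Of 15 measured heat shock genes 14 were higher at 6 h, 7 of them past 2-fold, with a median log2 ratio of 0.99 against 0.87 in all other ECs. Among all genes 50.3% were higher and 0.405% past 2-fold higher at 6 h. At 30 h none of the 15 was past 2-fold against the control and the median was 0.22.

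Hspe1, the mitochondrial co-chaperonin HSP10, was at 76.8 CPM in the control and 167 CPM at 6 h, a log2 ratio of 1.11. It shares a promoter region with Hspd1, the chaperonin HSP60, which lies on the opposite strand and had a ratio of 0.70. The 30 bases of that region in RefSeq's sequence (GRCm38.p6, chr1:55088053-55088082, plus strand) are shown because they hold, in capitals, a heat shock element that lies before the RefSeq start of Hspe1 and within the annotated bounds of Hspd1.
Hspe1 upstream window: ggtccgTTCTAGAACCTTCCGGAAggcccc
The element was searched on both strands as 3 alternating units, GAA, TTC and GAA, with 2 free bases between neighbours. The capitals mark 2 overlapping matches, which together cover 18 bases and lie 89 to 72 bases before the RefSeq start of Hspe1. Of 32851 RefSeq promoters, 0.466% held such a match in the 250 bases before the start. Among the heat shock genes only Hspe1 and Hspd1 did, of 18 promoters (11.1%), so most heat shock genes that were higher at 6 h had no match of these letters in that window. Since the 2 genes share a promoter region, whether their matches are the same stretch counted for both was not determined.

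Atf3, Bcl3 and Bcl6 were also higher. Atf3, a stress-induced bZIP factor, was at 98.1 and 302 CPM (1.61, 1.42 to 1.82) with UMIs in 89 control and 120 6 h cells. Bcl3, an atypical IκB protein, was at 21 and 59.8 CPM (1.47, 1.07 to 1.97), and Bcl6, a transcriptional repressor, at 12.3 and 38.3 CPM (1.56, 1.06 to 2.25). All 3 had ratios of 1.31 to 1.61 in the other ECs. Of 14 measured immediate early genes 13 were higher, Atf3 alone past 2-fold, with a median of 0.28 against 0.45 in the other ECs. The shares of all genes were 50.3% higher and 0.405% past 2-fold higher.

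Adamts9, a secreted metalloprotease, was at 69.5 and 186 CPM (1.41, 1.18 to 1.67), and its ratio exceeded that of the other ECs, 0.72, by 0.70 (0.45 to 0.94). Litaf, an endosomal protein induced by lipopolysaccharide, was at 53.6 and 143 CPM (1.40), above the 0.98 of the other ECs by 0.43 (0.15 to 0.71). Both were nearer to the control at 30 h, at log2 ratios of −0.30 and 0.42. Eef1e1, a tRNA synthetase complex factor, was at 15.2 and 41.1 CPM.

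Some large ratios came from few cells. Fabp4, a fatty acid binding protein of capillaries and veins, was at 13.04 and 399.7 CPM (4.84), but 613 of its 1022 UMIs at 6 h were in 1 cell and 93.0% in 5 cells. Without the 5 highest cells of each library its ratio was 1.82. Pdgfa, a growth factor for smooth muscle, was at 15.2 and 42.6 CPM (1.43) and had a ratio of 0.82 without its 5 highest cells. Both values rest in large part on a few cells.

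Edn1 and most glucocorticoid-induced genes were lower at 6 h. Edn1, the vasoconstrictor endothelin 1, was at 678, 408 and 562 CPM, a log2 ratio of −0.73 (−0.84 to −0.62) at 6 h against −0.26 in the other ECs. Within the bins of 3, 4 to 5 and 6 or more rule UMIs its 6 h ratio was −1.27, −0.90 and −0.27, the last near that of the other ECs. Zbtb16, a zinc finger factor induced by glucocorticoids, was at 226 and 87.2 CPM (−1.36) at 6 h and at 322 CPM at 30 h. Of 13 measured glucocorticoid-induced genes 9 were lower at 6 h, only Zbtb16 past 2-fold, with a median of −0.65 in the arterial cells and in the other ECs alike. Among all genes 50.3% were higher and 0.246% past 2-fold lower at 6 h. Sema5a, a guidance receptor ligand, was at 84.7, 27.0 and 24.1 CPM (−1.62 at 6 h), Tnik, a kinase of the Wnt pathway, at 71.0 and 25.8 CPM (−1.42), and Bnip3, a mitophagy receptor, at 60.5 and 27.0 CPM (−1.14). Depp1, a FOXO target, was at 58.3 and 24.6 CPM (−1.21). Olfm2, an olfactomedin among the 20 genes highest in the arterial cells, was at 36.2, 15.2 and 46.1 CPM, a ratio of −1.20 at 6 h against 0.06 in the other ECs. Nebl and Ccser1 also passed 2-fold lower at 6 h, Nebl with UMIs in only 20 control and 11 6 h cells.

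Haemoglobin transcripts and Scgb1a1 were lower as well. Hbb-bs was at 780, 299 and 53.6 CPM in the arterial cells, Hba-a1 at 471, 120 and 36.1 CPM, Hba-a2 at 347, 88.8 and 20.8 CPM, and Scgb1a1, the club cell secretoglobin, at 280, 65.7 and 40.1 CPM. Sftpc, a surfactant protein gene and the other of the 2 epithelial markers measured, had a 6 h ratio of 0.32. Empty droplets were also lower than in the control, with 13870, 8839 and 3393 CPM of Hbb-bs and 5288, 1256 and 2098 CPM of Scgb1a1. Their part in these values was not tested further. Without the 5 highest cells the 6 h ratio of Hba-a1 was −0.63 in place of −1.96, that of Hba-a2 −0.86 and that of Hbb-bs −0.70.

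Genes that the study used to mark reactive capillary cells (rCap) were higher in the arterial cells too. The study chose these markers on data that include these libraries. Of 38 measured rCap markers 37 were higher at 6 h and 4 past 2-fold (Bcl3, Cmah, Disp2 and March3). The median log2 ratio of the 38 was 0.41 against 0.42 in the other ECs. Over all 6907 genes 50.3% were higher at 6 h and 0.405% past 2-fold higher. Osmr, the oncostatin M receptor subunit, was at 147, 197 and 114 CPM and was higher in the arterial cells than in all other ECs in each library, by 1.17, 1.04 and 1.39 on the log2 scale. Pim3, a serine/threonine kinase under JAK-STAT control, was at 64.5, 97.4 and 45.8 CPM, a log2 ratio of 0.59 at 6 h and −0.48 at 30 h. Pim1 was at 68.5, 80.6 and 36.7 CPM, and Pim2 at 2.17, 2.74 and 2.41 CPM from 6, 7 and 8 UMIs.

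JAK-STAT genes had a median log2 ratio of 0.28 at 6 h (15 of 22 higher, 1 past 2-fold), against 0.30 in the other ECs. At 30 h it was −0.37 (1 of 22 higher, 2 past 2-fold lower), against −0.38. Over all genes 50.3% were higher and 0.405% past 2-fold higher at 6 h, and 40.1% were higher and 1.2% past 2-fold lower at 30 h. Socs3, the feedback inhibitor of this pathway, was at 256, 396 and 183 CPM and Stat3 at 226, 283 and 140 CPM. Of the leukocyte adhesion genes and chemokines all 8 measured were higher at 6 h, none past 2-fold, with a median of 0.42 against 0.32 in the other ECs. Icam1, the integrin ligand, was at 150, 228 and 69.0 CPM. Socs3, Stat3 and Icam1 thus had their highest value at 6 h and their lowest at 30 h.

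Interferon genes had small ratios at 6 h on the median. Of 45 measured markers of the study's high-interferon cluster (hIFN), 31 were higher, with a median of 0.14 against 0.22 in the other ECs. The study chose these markers, too, on data that include these libraries. Among all genes 50.3% were higher and 0.405% past 2-fold higher at 6 h. The 11 measured interferon-gamma GTPases, which the hIFN markers largely include, had a median of 0.33 against 0.41, with 9 higher. Gbp2, one of these GTPases, was at 63.7, 132 and 93.7 CPM, a log2 ratio of 1.04 and the only hIFN marker past 2-fold. Iigp1, another of them, was at 260, 208 and 173 CPM, a ratio of −0.32 where the other ECs had 0.26.

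**Figure D4:**
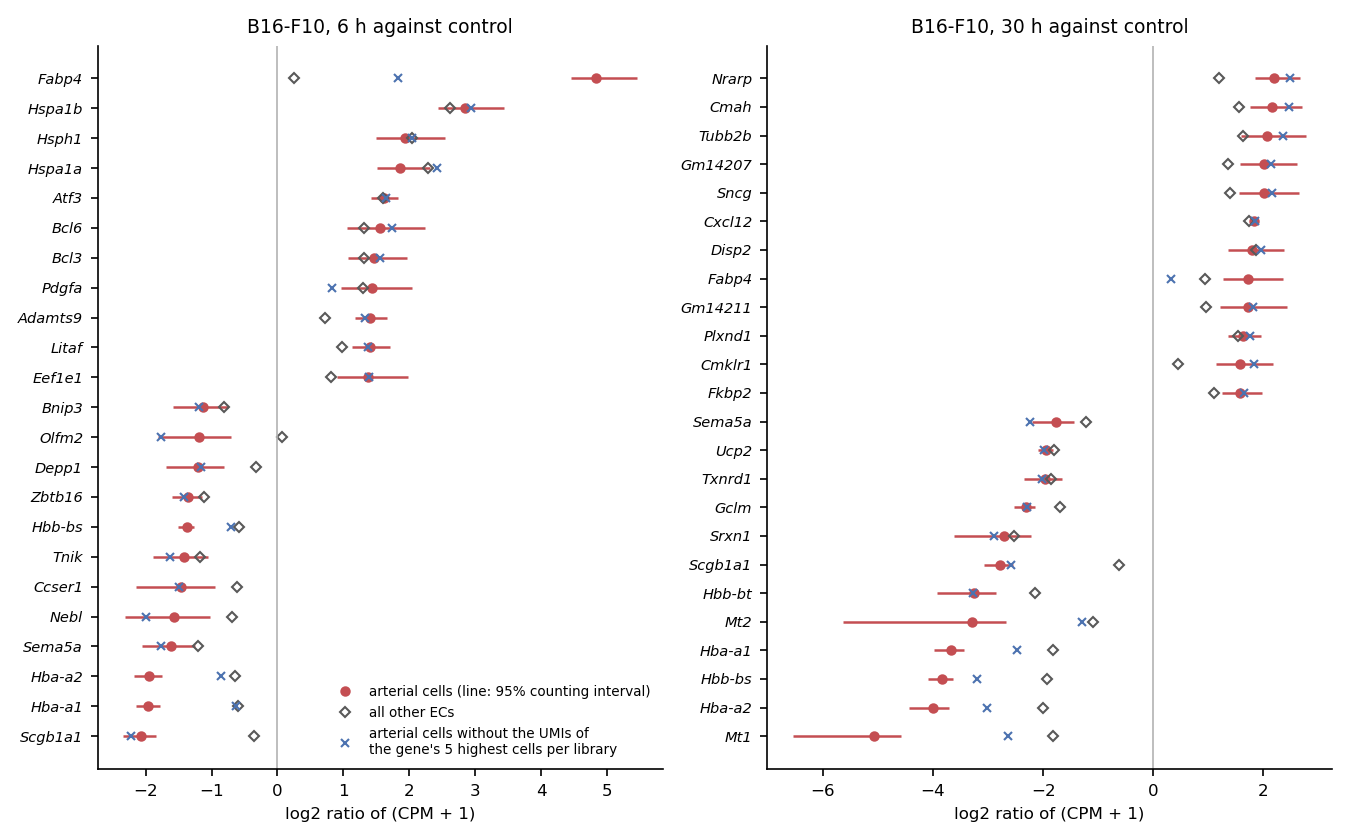
Log2 ratio of (CPM + 1) against the control (horizontal axes) for genes with the largest and the smallest ratios (11 and 12 genes at 6 h, left, and 12 and 12 at 30 h, right) in arterial cells (filled circles with 95% counting intervals), with all other ECs (open diamonds) and the arterial value without the 5 highest cells of the gene in each library (crosses). Fabp4 at 6 h moves from 4.84 to 1.82 without those cells, whereas Hspa1b and Atf3 are no lower.

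At 30 h, of the 6907 genes 71 (1.03%) were at least 2-fold higher than in the control and 83 (1.2%) at least 2-fold lower, the median over all genes was −0.0887, and 40.1% of all genes were higher. The 71 held 6 of 7 measured gene models that collect ribosomal RNA reads (Gm42418 and the like), whose ratios had a median of 1.87 against 1.99 in the other ECs. All 8 such models summed to 7940, 10300 and 29800 CPM in the arterial cells and to 9080, 11900 and 47400 CPM in empty droplets. With CPM computed without these models and mitochondrial genes, 83 genes were higher and 76 lower, 64 and 74 of them shared with the counts above. The part of RNA quality in the 30 h ratios was not tested. In this comparison 9 genes (0.13%) had a larger and 12 (0.174%) a smaller ratio in the arterial cells than in the other ECs by at least 1 on the log2 scale. Nrarp and Bhlhe40, a hypoxia- and clock-linked repressor, were among the 9. Bhlhe40 was at 14.1, 23.5 and 40.7 CPM, a log2 ratio of 1.45 (0.99 to 2.06) at 30 h against 0.43. The 12 with the smaller ratio held 4 haemoglobin genes, Scgb1a1, Mt1 and Mt2.

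Leaving those models aside, the largest 30 h ratios after Nrarp were those of Cmah (2.15), a sialic acid hydroxylase, at 17.0, 42.2 and 79.2 CPM, and Tubb2b (2.07), a beta tubulin, at 10.9, 11.3 and 48.8 CPM. Sncg, gamma-synuclein, was at 12.7, 18.0 and 53.9 CPM (2.01), Disp2, a dispatched homologue, at 15.2, 35.2 and 55.1 CPM (1.79), and Fkbp2, an endoplasmic reticulum isomerase, at 29.0, 35.6 and 88.2 CPM (1.57). Plxnd1, the semaphorin receptor that also senses shear, was at 42.0, 63.0 and 132 CPM (1.63). All of these were also higher in the other ECs, by 1.10 to 1.86. Cmklr1, the chemerin receptor, was at 14.8, 20.7 and 46.4 CPM (1.58, 1.14 to 2.18) against 0.45 in the other ECs, an excess of 0.96 (0.37 to 1.55) computed without the added 1. Gm14207 and Gm14211, unnamed noncoding genes, had ratios of 2.01 and 1.72, and Fabp4 had 1.72, or 0.33 without its 5 highest cells.

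Arterial identity genes were mostly higher at 30 h in the set as a whole. That set held more cells with 6 or more rule UMIs than the control, 47.1% against 34.1%. The summed level of these genes was highest in such cells. Within that bin, which counts Gja5, the 30 h ratios had both signs. Gja4 was at 0.74 and Sema3g at 0.62, but Vwf at −0.02 and Mgp at −0.22. The part of this shift of cells in the ratios was not tested. Of the 20 arterial genes outside the rule 16 were higher, 2 of them past 2-fold (Cxcl12 and Unc5b), with a median log2 ratio of 0.24 against 0.19 in the other ECs. Among all genes 40.1% were higher and 1.03% past 2-fold higher at 30 h. At 6 h 7 of the 20 were higher, where 50.3% of all genes were, and the median was −0.06 against 0.009 in the other ECs. Unc5b, a netrin receptor of arterial tip cells, was at 43.7 CPM at 30 h. Sema3g, a semaphorin of arteries, was at 382, 388 and 580 CPM, and Tm4sf1, a tetraspanin-like protein, at 2001, 2163 and 2918 CPM. Gata6, a zinc finger factor of large vessels, was at 132, 128 and 170 CPM (0.36) where the other ECs had −0.29, a difference of 0.66 (0.45 to 0.88). In cells chosen without Gja5 its ratio was 0.57 (0.37 to 0.78), and within the bins of 3, 4 to 5 and 6 or more rule UMIs, which count Gja5, 0.13, −0.27 and 0.37. Thsd7a was lower at 30 h, at 438, 409 and 302 CPM (−0.54).

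Of the study's 47 artery markers, which it chose on data that include these libraries, 33 were higher at 30 h. Past 2-fold were 5 higher (Plac8, Pde1c, Cxcl12, Fads2 and Cmklr1) and 1 lower (Mctp1). The median was 0.26 against 0.07 in the other ECs. Among all genes 40.1% were higher, 1.03% past 2-fold higher and 1.2% past 2-fold lower. Pde1c was at 63.4, 95.4 and 151 CPM, Plac8 at 253, 329 and 521 CPM and Atp13a3 at 269, 316 and 487 CPM. Mctp1, a calcium-sensing membrane protein, was at 1197, 762 and 564 CPM. In cells chosen without Gja5 the 30 h ratios of Pde1c and Atp13a3 were 1.56 and 1.15, and those of Gja4 and Cxcl12 0.69 and 1.89. Mecom, with 0.26 in the whole set and 0.45 without Gja5, had 0.30, 0.02 and −0.05 within the 3 bins of rule UMIs, which count Gja5.

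Within the Notch pathway 11 of 16 measured genes were higher at 30 h, only Nrarp past 2-fold, and the median was 0.30 against 0.15 in the other ECs. By comparison, 40.1% of all genes were higher and 1.03% past 2-fold higher. The ligand Dll4 was at 182, 181 and 232 CPM, the receptor Notch1 at 305, 311 and 387 CPM and the receptor Notch4 at 116, 100.1 and 165 CPM. The target Hes1 was at 189, 181 and 313 CPM (0.72), while the target Hey1 was at 376, 302 and 351 CPM (−0.10). Efnb2 was at 1065, 1009 and 1249 CPM. The targets Nrarp, Hes1 and Hey1 thus had unlike ratios. The RBPJ site GTGGGAA, searched on both strands of the 250 bases before the start, was found in 2 of 19 Notch pathway promoters (10.5%), those of Hey2 and Lfng, against 5.42% of all promoters, and not in that of Nrarp.

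Elastic fibre genes were at or above the control level at 30 h in 7 of 9 cases, where 40.1% of all genes were higher. Their median was 0.21 against 0.07 in the other ECs. In cells with at least 5 rule UMIs the median was −0.0144. Fbn1, fibrillin 1, had a 30 h ratio of 0.94 against 0.17 in the other ECs, an excess of 0.76 (0.47 to 1.05). Fbln5, the fibulin that assembles elastic fibres, was at 62.7, 58.7 and 124 CPM (0.97, 0.73 to 1.25) against 0.57. Fbln2 was at 58.3, 39.5 and 86.7 CPM (0.57, 0.29 to 0.86). Eln was at 252, 271 and 306 CPM and Mgp at 633, 670 and 728 CPM.

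In cells chosen without Gja5 the 30 h ratio of Fbln5 was 1.36 (1.11 to 1.65), that of Fbn1 1.19 (0.93 to 1.48) and that of Eln 0.47 (0.32 to 0.62). Within the bins of 3, 4 to 5 and 6 or more rule UMIs, which count Gja5, the ratio of Fbln5 was 0.56, −0.43 and 0.83, that of Eln 0.70, −0.01 and −0.06, and that of Fbn1 0.85, 0.39 and 0.86. Because Gja5 shifted cells between the bins at 30 h, no direction is read from these values.

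Vasoactive genes had no common direction at 30 h. Of 12 measured 8 were higher, where 40.1% of all genes were higher, with a median of 0.14. Edn1 had a log2 ratio of −0.27 against −0.69 in the other ECs. Nos3, the endothelial nitric oxide synthase, was at 54.3, 75.1 and 67.5 CPM, and Ptgs1, a cyclooxygenase, at 41.3, 25.8 and 14.8 CPM (−1.42), past 2-fold as in the other ECs (−1.78). Of the shear stress genes, 7 of 8 were higher, with a median of 0.41 against 0.31. Klf2, the factor induced by laminar flow, was at 1133, 1197 and 1862 CPM (0.72), above the 0.31 of the other ECs by 0.41 (0.35 to 0.47), and Klf4 was at 618, 798 and 920 CPM.

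Bone morphogenetic protein (BMP) and Wnt genes were mostly below the control at 30 h, where 40.1% of all genes were higher and 1.2% past 2-fold lower. Of 18 BMP and TGF-beta genes 15 were lower, none past 2-fold, with a median of −0.37 against −0.27 in the other ECs. Bmp4 was at 116, 117 and 60.5 CPM (−0.93), Smad1 at 78.9, 81.4 and 42.2 CPM (−0.89) and Bmp6 at 1051, 1225 and 620 CPM (−0.76). Tgfb2, a ligand that was higher in the arterial cells than in other ECs in each library, was at 46.7, 59.8 and 25.9 CPM (−0.83) against −0.25. Of 13 Wnt genes 12 were lower, none past 2-fold, with a median of −0.53 against −0.18. Tcf7l1 (−0.73) and Nkd1 (−0.69), a transcription factor and a feedback inhibitor of the pathway, had the lowest ratios.

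Of the 8 measured leukocyte adhesion genes and chemokines 5 were higher and 3 lower at 30 h, with 1 past 2-fold each way and a median of 0.34 against 0.11 in the other ECs. The shares of all genes were 40.1% higher, 1.03% past 2-fold higher and 1.2% past 2-fold lower. Vcam1, the ligand of leukocyte integrins, was at 111, 128 and 145 CPM (0.38, 0.18 to 0.60) at 30 h where the other ECs had −0.50, a difference of 0.90 (0.68 to 1.12). Icam1 was past 2-fold lower (−1.11), against −0.86 in the other ECs. Vcam1 was also higher in arterial cells than in other ECs within each library, with log2 ratios of 1.38, 1.10 and 2.27. Its 30 h ratio was 0.64 (0.42 to 0.87) in cells chosen without Gja5, and 0.87, −0.62 and 0.06 within the bins of 3, 4 to 5 and 6 or more rule UMIs, which count Gja5.

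Of 12 measured capillary genes 9 were lower and 3 higher at 30 h, where 40.1% of all genes were higher, with a median of −0.27 against −0.12 in the other ECs. Lpl and Tox3 were past 2-fold lower, as were 1.2% of all genes. Lpl, lipoprotein lipase, was at 945, 927 and 301 CPM (−1.65) and at −1.91 in the other ECs. Sema3c was at 1363, 1157 and 836 CPM (−0.71) while the other ECs had −0.01. Within the bins of 3, 4 to 5 and 6 or more rule UMIs its 30 h ratio was −0.51, −0.30 and −0.68.

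Calr, Pdia6, Fdps and Scd2, of the endoplasmic reticulum (ER) and of lipid synthesis, were past 2-fold higher at 30 h. Calr, calreticulin, was at 157, 180 and 441 CPM (1.49), Pdia6, a disulfide isomerase, at 88.0, 118 and 244 CPM (1.46), and Hspa5, the chaperone BiP, at 172, 292 and 339 CPM. Of 11 ER stress genes 8 were higher, 3 past 2-fold, with a median of 0.75 against 0.64 in the other ECs. Over all genes 40.1% were higher and 1.03% were past 2-fold. All 7 measured sterol synthesis genes were higher, 2 past 2-fold, with a median of 0.84 against 0.73, and Fdps, an isoprenoid synthase, was at 13.4, 15.3 and 34.9 CPM (1.34). Of 8 fatty acid synthesis genes 7 were higher, 2 past 2-fold, with a median of 0.53 against 0.28. Scd2, a fatty acid desaturase, was at 36.2, 31.3 and 89.8 CPM (1.30), and Ccnd1, cyclin D1, at 68.4, 96.6 and 197 CPM (1.51).

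Antioxidant genes were lower at 30 h. Gclm (chr3:122245557-122270732, plus strand), the modifier subunit of the enzyme that makes glutathione's precursor, was at 427 (403 to 452), 236 (217 to 255) and 84.9 CPM (75.3 to 95.4). Its log2 ratio was −0.85 at 6 h, where the other ECs had −0.24 and the aerocyte set went from 390 to 491 CPM, and −2.32 (−2.52 to −2.14) at 30 h, where the other ECs had −1.69. Srxn1, sulfiredoxin, was at 46.7, 24.2 and 6.32 CPM (−2.70), and Txnrd1, thioredoxin reductase, at 112, 88.0 and 28.0 CPM (−1.96). All 10 measured targets of the oxidant sensor NRF2 were lower at 30 h, 5 past 2-fold, with a median of −1.16 against −1.28. Of all genes 40.1% were higher and 1.2% past 2-fold lower at 30 h. At 6 h 9 of the 10 were lower, none past 2-fold, with a median of −0.32 against −0.13. The shares of all genes at 6 h were 50.3% higher and 0.246% past 2-fold lower. Ucp2, a mitochondrial carrier outside that list, was at 724, 406 and 186 CPM (−1.95).

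Mt1 and Mt2, metal-binding metallothioneins, were at 134, 91.5 and 3.01 CPM and at 23.5, 36.0 and 1.51 CPM. In the control 5 cells held 90.6% of the Mt1 UMIs, and without the 5 highest cells its 30 h ratio was −2.63 in place of −5.08. Haemoglobins were lower again (Hba-a2 −4.00, Hbb-bs −3.84, Hba-a1 −3.67, Hbb-bt −3.25), as were their levels in empty droplets. Without the 5 highest cells these ratios were −3.01, −3.20, −2.48 and −3.27.

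**Figure D5:**
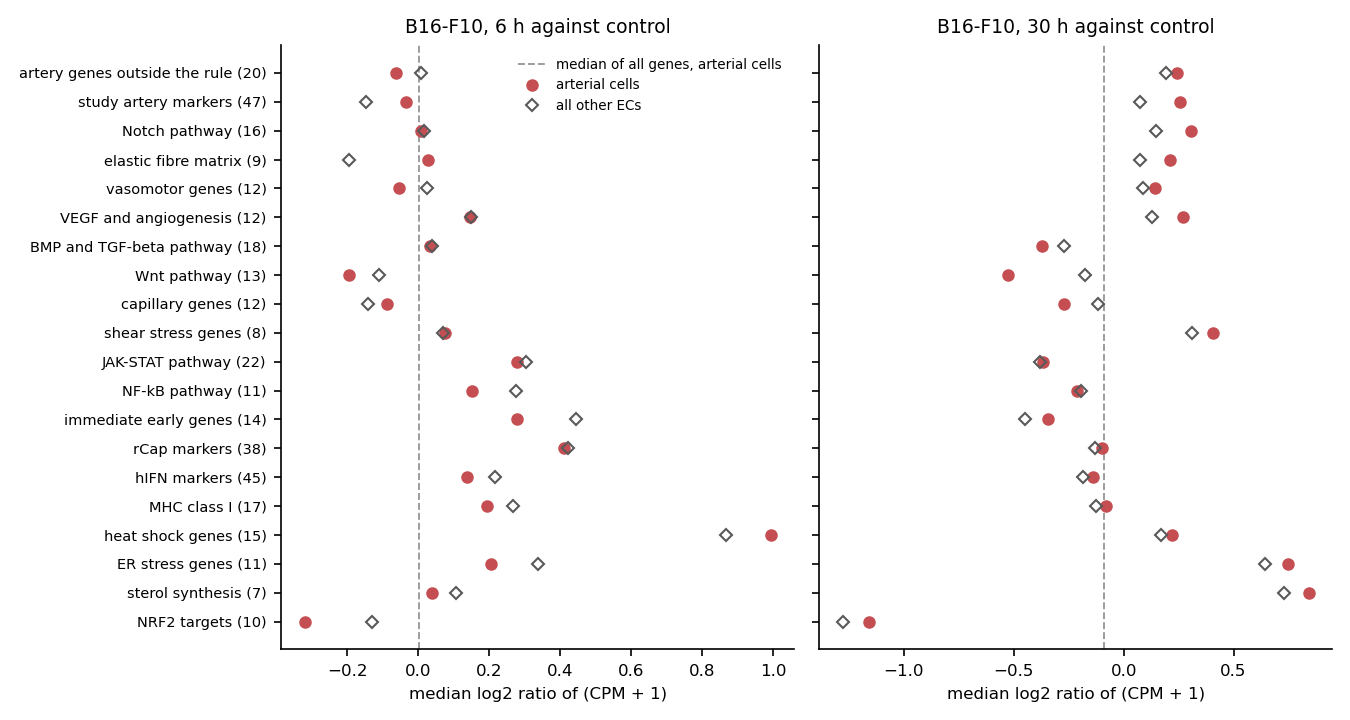
Median log2 ratio of (CPM + 1) against the control (horizontal axes) for 20 gene lists at 6 h (left) and 30 h (right) in arterial cells (filled circles) and all other ECs (open diamonds), with the number of measured genes in brackets and the median of all genes as a dashed line. Heat shock genes lie at 0.99 at 6 h, and NRF2 targets at −1.16 and sterol synthesis genes at 0.84 at 30 h, with the other ECs close by.

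Between 6 h and 30 h, both after B16-F10, 69 genes (0.999%) were at least 2-fold higher at 30 h and 67 (0.97%) at least 2-fold lower, around a median over all genes of −0.10 with 37.9% of all genes higher. Zbtb16 was higher at 30 h by 1.87 (1.68 to 2.10), against 1.22 in the other ECs. Ddit4, an inhibitor of mTOR complex 1 induced by stress and glucocorticoids, was at 20.6, 14.1 and 56.6 CPM, a ratio of 1.93 against 0.84. Hspa1b was lower at 30 h by −2.87, and Serpina3g, an intracellular serpin, was at 61.6, 128 and 22.3 CPM, a ratio of −2.46 against −2.56. All 15 heat shock genes and all 22 JAK-STAT genes were lower at 30 h than at 6 h, with medians of −0.73 and −0.62.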

How the data were processed

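The authors deposited, for each of the 3 libraries, an unfiltered matrix of UMI counts per gene and barcode (32285 genes, 1792904 to 1911655 barcodes). Per the labels the reads were processed with Cell Ranger 7.2.0 against mm10 and cells with Seurat 4.4.0; the study's methods name an older Cell Ranger. Whether intronic reads were counted is not given in the sources used here, and more barcodes were listed than the labelled kit version allows for. No cell annotation was used. Cells had 1000 to 5000 genes and under 20% mitochondrial UMIs, and ECs at least 2 UMIs of Pecam1 and Cdh5 together. Arterial, vein, aerocyte and lymphatic sets were cut from marker UMIs, and each library's counts were summed per set and scaled to CPM. Doublets were scored with Scrublet and kept (15, 5 and 9 likely doublets among the arterial cells of the control, 6 h and 30 h libraries). Empty droplets were barcodes with at most 100 UMIs. Total UMIs per library were 124085451 to 140601123, and the summed arterial depth of 2556611 to 3320078 UMIs sets the counting precision.

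Ratios between libraries used a pseudocount of 1 CPM, for the 6907 genes outside the rule that averaged 20 CPM or more. With 1 library per group no test was run, and genes past 2-fold were counted. Gene models that collect ribosomal RNA reads were counted but left out of the naming. Named genes had a 95% counting interval that left out equality and were the 12 highest and 12 lowest ratios of each library against the control, 6 and 6 for 30 h against 6 h, the 20 highest and 10 lowest against other ECs, the rule genes, Fbln2, Pim1 to Pim3 and list members with large ratios. Genes named only for the division by Fbln2, and a few list members set beside them, were chosen after their values were seen. The members, gene lists and alternatives were chosen with earlier results of these data known. Alternatives were other marker, gene, doublet and expression limits, thinning to 4000 UMIs, other scalings and pseudocounts. Choosing cells without Gja5 and leaving out the 5 highest cells of each gene were added after seeing the data. Scripts were tested on simulated data. Promoter sequences came from RefSeq (GRCm38.p6) and gene positions from GENCODE vM21 (32158 of 32285 gene identifiers matched). Python 3.11.15, numpy 2.4.6, pandas 2.3.3, scipy 1.17.1, scanpy 1.11.5 and matplotlib 3.10.9 were used. Mx1 and Mx2 were not analysed here, and 1 gene of the naming rule is not reported here.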

Additional observations from a re-analysis of the deposited data

Results flagged for a closer look

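Melanoma transcripts, which the comparisons above do not use, were present in the empty droplets of the 6 h library. The summed level of 7 melanoma markers was 214.0 CPM there (198 to 232, from 635 UMIs), against 4.79 CPM (17 UMIs) in the control and 9.80 CPM (53 UMIs) at 30 h. In the arterial cells they stood at 14.5 CPM at 6 h (10.2 to 19.9, from 37 UMIs) and at 1.09 and 0.904 CPM (3 UMIs each) in the control and at 30 h. The 6 h library was the only one whose label lists sorted melanoma cells.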

How the results depend on the processing

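No paired analysis was possible because each group was a single library. The arterial share in the control, 6 h and 30 h libraries was 4.26%, 4.2% and 5.87% with a limit of 2 rule UMIs, 1.18%, 1.24% and 2.1% with a limit of 5, and 1.33%, 1.16% and 2.03% after thinning, and without Gja5 it was 2.24% at 6 h and 2.62% at 30 h. Counts of genes past 2-fold, as higher and lower, followed the expression limit. With a mean of at least 10 CPM they were 69 and 41 at 6 h, 126 and 131 at 30 h, and 113 and 111 for 30 h against 6 h. With at least 50 CPM they were 15 and 7, 35 and 52, and 34 and 41, and with no limit 431 and 504, 547 and 557, and 591 and 527. With 5 rule UMIs, which leaves fewer cells, they were 71 and 52 at 6 h, and 146 and 138 were lower at 30 h than in the control and than at 6 h. Genes lower at 6 h numbered 29 without the 5 highest cells of each gene (12 of them among the 17 above) and 43 without an upper gene limit. Medians of some lists with few measured genes changed sign. MHC class II genes, 30 h against 6 h, were at −0.12 without cells holding RNA of other cell types and −0.0862 without likely doublets. Aerocyte genes outside the rule, 30 h against 6 h, were at 0.14 with a limit of 2 rule UMIs, 0.207 without an expression limit and 0.0800 without an upper gene limit, and against the control at 0.0718, 0.0138 (at least 10 CPM), 0.00237 (mean over cells) and 0.0781. Elastic fibre genes at 30 h were at −0.0144 with 5 rule UMIs. The cause of these changes of sign was not tested. For the single genes that were carried through these alternatives, 971 values stayed within their counting interval, 94 moved and none changed sign.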
